A study of Mus musculus with 9 samples.

Results

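The genes described here were absent or nearly absent in sorted liver macrophages of mice on a normal diet (ND) and present in those of mice on a high-fat diet (HFD). They are Plcg1, Nek6, Plxna1, Scarf1, Pdlim4, Emp1, Tmem115, Scmh1, Rnf125 and Pde12. These are 10 of the 23413 genes in the count table, they belong to no common pathway, and all 10 were among the 11393 genes that passed the filter on low counts. The genes were chosen by their counts in the ND libraries and the vehicle libraries themselves, so the difference between those groups is a description and was given no test. The rule named the genes and set no numeric limit.

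The libraries came from male C57BL/6 mice, 5 weeks old when their diets began and kept on them for 8 weeks. ND mice ate chow with 10 kcal% fat (2 libraries), and the HFD held 60 kcal% fat. From week 3 the HFD-fed mice were injected intraperitoneally every 5 days with vehicle (Veh, 3 libraries) or with 2 mg/kg diphenyleneiodonium (DPI, 4 libraries), a small molecule long used as an inhibitor of flavin enzymes and described by the study as an agonist of the receptor GPR3. No injection is stated for the ND mice, so the diet and the injections cannot be told apart between ND and Veh. A label that all 9 samples carry, ND and Veh included, gives 500 nM for 24 h. It cannot describe these groups, and the diets and injections were followed here. The cells were gated as F4/80+ CD11b+ Gr1low, a sort that can hold Kupffer cells, the resident macrophages of the liver, together with macrophages derived from blood monocytes.

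Library totals ranged from 3534325 to 15585775 counts, and 3 counts, taken here as the limit of detection, corresponded to between 0.184 and 1.02 CPM (counts relative to library size, with the library size corrected by the trimmed mean of M-values, TMM). The 45S ribosomal precursor Rn45s took 27% to 44.5% of the counts. The ND libraries were the least alike, with a rank correlation across genes of 0.74 against 0.867 to 0.88 among the Veh libraries and 0.838 to 0.887 among the DPI libraries. Of 12 Kupffer cell markers, 10 were above 3 counts in at least 1 library of each group. By library, 6 and 9 were so in ND, 10, 6 and 5 in Veh, and 10, 9, 7 and 9 in DPI. Marco and Folr2 had no count in either ND library, and Vsig4 and Marco had none in any Veh library. The 9 monocyte markers were all detected in each group and summed to between 19100 and 50100 CPM, of which Lyz2 alone made up between 14000 and 42900 CPM. In a sorted population, fewer cells of a type and less RNA per cell cannot be told apart.

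A macrophage reads its surroundings through surface receptors, and signals from them pass through kinases and lipid-cleaving enzymes to the cytoskeleton, the secretory route and the nucleus. Plcg1, Plxna1 and Scarf1 belong to such signalling and uptake, and the others act elsewhere in the cell, from the spindle to the breakdown of RNA. In the liver, macrophages take up lipid, debris and dying cells, and fat feeding is known to change both their number and the share that derives from monocytes.

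The start sites of 6 of the genes were covered by 9 promoter windows of 300 bases, 250 before and 50 after the start, taken from RefSeq on GRCm38.p6. They were searched on both strands for 6 short motifs. These were the GC box with the letters GGGCGG, the motif bound by NF-Y with the letters CCAAT, the core promoter motif bound by TBP with the letters TATAAA, the AP-1 motif with the letters TGACTCA, the motif of PU.1, a factor that defines myeloid cells, with the letters GAGGAAGT, and the sterol element with the letters TCACNCCAC. For 5 of the genes, which share no pathway, 1 window each is printed to show what their start regions do and do not hold in common. These windows lie at chr2:160731060-160731359 (plus strand), chr11:54068968-54069267 (minus strand), chr6:135362681-135362980 (plus strand), chr4:120405098-120405397 (plus strand) and chr14:26669797-26670096 (minus strand), and each is written 5′ to 3′ on the strand of its gene with the matches in capitals.
Plcg1: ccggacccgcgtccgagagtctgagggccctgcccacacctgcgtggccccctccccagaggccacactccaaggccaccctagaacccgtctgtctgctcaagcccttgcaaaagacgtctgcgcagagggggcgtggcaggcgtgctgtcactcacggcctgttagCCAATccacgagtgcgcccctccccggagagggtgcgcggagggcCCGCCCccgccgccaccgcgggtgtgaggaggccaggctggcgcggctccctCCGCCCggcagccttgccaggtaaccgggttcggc
Pdlim4: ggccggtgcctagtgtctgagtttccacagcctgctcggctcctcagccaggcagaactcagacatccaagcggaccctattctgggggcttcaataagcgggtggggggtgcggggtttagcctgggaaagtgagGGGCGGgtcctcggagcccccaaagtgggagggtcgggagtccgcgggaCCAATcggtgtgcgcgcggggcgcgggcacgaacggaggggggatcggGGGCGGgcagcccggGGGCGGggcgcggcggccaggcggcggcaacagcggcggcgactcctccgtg
Emp1: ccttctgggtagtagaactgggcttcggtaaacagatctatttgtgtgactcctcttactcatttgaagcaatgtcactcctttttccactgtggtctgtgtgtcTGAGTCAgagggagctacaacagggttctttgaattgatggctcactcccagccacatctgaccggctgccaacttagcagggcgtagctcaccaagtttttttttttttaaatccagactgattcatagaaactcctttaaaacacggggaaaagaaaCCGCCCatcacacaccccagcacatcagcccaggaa
Scmh1: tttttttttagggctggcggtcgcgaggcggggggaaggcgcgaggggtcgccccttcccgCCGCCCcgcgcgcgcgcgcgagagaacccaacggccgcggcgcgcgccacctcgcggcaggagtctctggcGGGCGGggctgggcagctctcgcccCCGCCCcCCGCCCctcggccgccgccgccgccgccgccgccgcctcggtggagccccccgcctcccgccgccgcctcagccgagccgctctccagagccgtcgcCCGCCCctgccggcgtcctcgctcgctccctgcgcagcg
Pde12: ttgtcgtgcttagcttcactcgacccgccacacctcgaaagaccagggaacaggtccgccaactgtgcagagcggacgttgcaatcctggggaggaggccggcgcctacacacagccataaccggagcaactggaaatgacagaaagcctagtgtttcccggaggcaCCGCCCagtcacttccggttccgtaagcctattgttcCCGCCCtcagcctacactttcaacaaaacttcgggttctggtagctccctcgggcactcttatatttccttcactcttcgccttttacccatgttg

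The GC box, in either orientation, was the only one of the 6 motifs found in all 6 genes with a window, and 38.2% of all 27025 genes with a window held it. By window, it was in 7 of the 9 and in 35.7% of all 32851. A CCAAT box was present for 3 genes (Plcg1, Pdlim4 and Nek6) and for 41.1% of all genes. A TATA box was present for Nek6 only (15.7% of all genes) and an AP-1 match for Emp1 only (5.95%). The PU.1 letters and the sterol element were not in these windows, and they were in those of 3.69% and 1.44% of all genes. The 9 windows held between 32.7% and 82% G and C, with 6 of them above the 52.7% median of all windows. The printed windows of Plcg1, Pdlim4, Scmh1 and Pde12 lay above that median and that of Emp1 below it. A match describes letters in the window and shows no binding.

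Across all 10 genes, the ND libraries stood apart from every library of HFD-fed, vehicle-treated mice. Counts in ND replicate 1 were at or under 3 for 9 of the 10 genes and reached at most 6, and those in ND replicate 2 were at or under 3 for 6 genes and reached at most 23. Every Veh library was above 3 counts for every gene, and for all 10 genes each Veh library lay above both ND libraries. That separation held for 15% of all genes tested, and the 10 were picked for it. In sum, the 10 genes reached 2.55 and 14 CPM in the ND libraries, 198, 184 and 185 CPM in the Veh libraries, and 75.1, 72.6, 165 and 152 CPM in the DPI libraries. The Veh sums were thus close to each other, while the DPI libraries fell into a low and a high pair, all above ND and all below Veh.

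**Figure D1:**
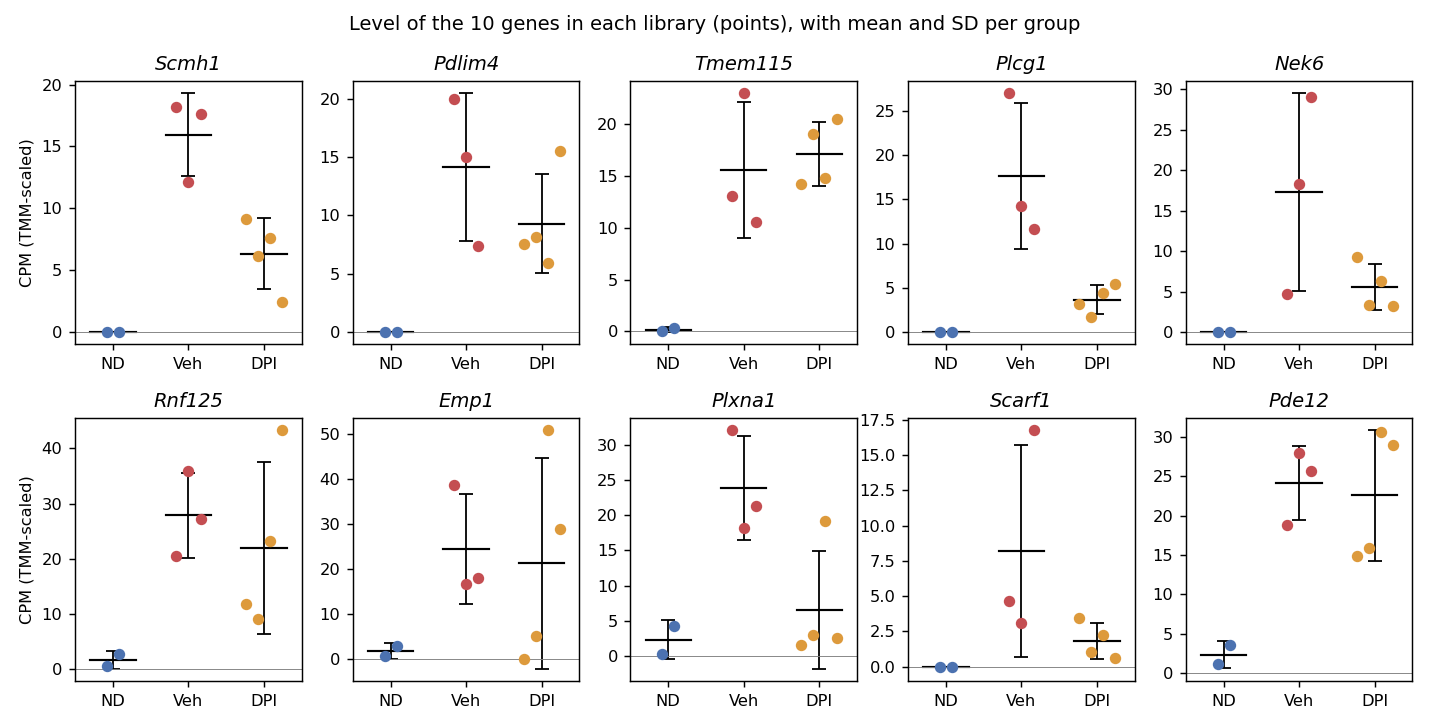
Level of each of the 10 genes in the 9 libraries, in TMM-scaled CPM on a linear axis that differs between panels. Points are libraries, horizontal lines are group means and bars are 1 SD (ND n = 2, Veh n = 3, DPI n = 4). No ND point lies above 4.29 CPM, and the DPI points of Plcg1 and Scmh1 all lie below their Veh points, as in 2.48% of all genes tested. The ND and Veh libraries were used to choose the 10 genes.

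Between DPI and vehicle, the quasi-likelihood test of edgeR, with p adjusted by Benjamini and Hochberg's method over 11393 genes, called none of the 10, with an adjusted p of 0.999 for each. It called 0% of all genes, of which 470 had an unadjusted p under 0.05. DESeq2 called 2 genes and edgeR's likelihood ratio test 1. The threshold used in the study asked for an unadjusted p under 0.05 and a change of 1 or more, up or down, on the log2 scale. By it, 2 of the 10 genes were lower with DPI (Plcg1 and Nek6) and none was higher, where 1.34% of all genes were lower and 1.5% higher. That count was 5, with Plxna1, Scarf1 and Scmh1 added, by DESeq2, the likelihood ratio test, a fit of the 2 groups only, or without either ND replicate. It was 1 without Veh replicate 1 or 3 or DPI replicate 2 or 4. The estimate was negative for 9 of the 10, and its median was -0.97 against 0.04 over all genes tested. Over the 228 tested genes at or under 3 counts in both ND libraries and above 3 in every Veh library, 6 of the 10 among them, the median was -0.37. The vehicle libraries helped to choose the genes, so these tests are not independent of the choice.

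**Figure D2:**
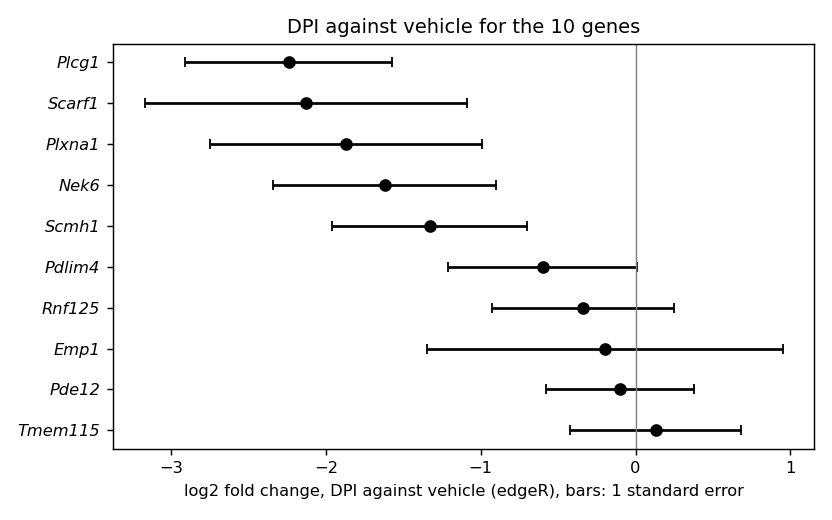
Log2 fold change of DPI against vehicle for the 10 genes from the edgeR fit (x axis), with bars of 1 standard error. The estimates run from -2.24 (Plcg1) to 0.13 (Tmem115), and no gene passed the adjustment.

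Plcg1 encodes phospholipase C gamma 1, which cleaves a membrane phospholipid downstream of tyrosine kinases to release the second messengers inositol trisphosphate and diacylglycerol. It had no count in either ND library, and 27, 14.3 and 11.6 CPM in the Veh libraries (122, 79 and 47 counts). The DPI libraries had 3.18, 1.7, 4.45 and 5.4 CPM, so that all 4 lay above ND and below every Veh library. Against a floor of 3 counts per ND library, the level was at least 32-fold higher in Veh and at least 6.66-fold higher in DPI. The DPI mean, 3.68 ± 1.61 CPM (SD, n = 4), was 20.8% of the Veh mean, 17.7 ± 8.24 CPM (SD, n = 3). The log2 fold change was -2.24 ± 0.67 (SE), with an unadjusted p of 0.00538 and an adjusted p of 0.999 in edgeR's quasi-likelihood test. Without Veh replicate 1 the unadjusted p of that edgeR test was 0.0549. Plcg1 overlaps Zhx3 on the opposite strand over 27053 bp, and since the counting is not stated to use strand, reads of the overlap could belong to either gene. Zhx3 had 0 and 24 counts in ND, 5 to 21 in Veh and 2 to 28 in DPI.

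Plcg2, the phospholipase C gamma that predominates in myeloid and B cells, went the other way in its estimate. It had 983 and 505 counts in ND and 434, 269 and 320 in Veh, a log2 fold change of -0.87 ± 0.40 (SE) with an adjusted p of 0.382 by edgeR's quasi-likelihood test. Plcb4, of the beta class, had 47 and 0 counts in ND and none in Veh. Of 18 tested genes acting with phospholipase C, 2 were higher (11.1%) and 1 lower (5.56%) in Veh at the study threshold, against 7.03% and 4.63% of all genes. Itpr3, a calcium channel opened by inositol trisphosphate, had 4 and 0 counts in ND against 6, 31 and 76 in Veh (log2 fold change 4.48 ± 1.42, SE). Rasgrp4, a diacylglycerol-binding activator of Ras, had 720 and 332 counts in ND against 121, 170 and 99 in Veh (-1.82 ± 0.43, SE). Neither passed the adjustment in edgeR's test (adjusted p = 0.254 and 0.139).

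Nek6 encodes a kinase of mitosis that acts downstream of Nek9 in building the spindle. It had no count in ND, 4.66, 18.3 and 29 CPM in the Veh libraries and 9.3, 3.39, 6.3 and 3.26 CPM in the DPI libraries. The Veh libraries spread 6.22-fold, and the DPI libraries overlapped the lowest of them, with 2 of 4 below all Veh values. Its level was at least 31.3-fold higher in Veh (20.8-fold without Veh replicate 3) and at least 10.1-fold higher in DPI than the ND floor. The DPI mean was 32.2% of the Veh mean, a log2 fold change of -1.62 ± 0.72 (SE) with an unadjusted p of 0.0437 and an adjusted p of 0.999 by edgeR's quasi-likelihood test. The unadjusted p of that edgeR test rose to between 0.0684 and 0.264 when Veh replicate 2 or 3, or DPI replicate 2, 3 or 4, was left out. Psmb7 overlaps Nek6 on the other strand over 6571 bp and was at 40.4 ± 2.54 CPM in ND (SD, n = 2), where Nek6 had no count.

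Of 11 tested genes of its mitosis list, 1 was higher (9.09%) and 3 were lower (27.3%) in Veh at the study threshold, against 7.03% and 4.63% of all genes. The median log2 fold change of the 11 was -1.65 against 0.03 over all genes. Nek9 itself had 373 and 165 counts in ND and 72, 47 and 48 in Veh (log2 fold change -2.03 ± 0.55, SE, adjusted p = 0.178 by edgeR's quasi-likelihood test). Nek4, of the same kinase family, had 4 and 35 counts in ND against 1, 0 and 0 in Veh. Kif11, a spindle motor, had 149 and 4 counts in ND against 0, 3 and 3 in Veh, with the ND libraries far apart. None of these had the near absence in both ND libraries that chose Nek6.

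Plxna1 encodes plexin A1, a receptor for semaphorins that signals to the cytoskeleton. ND libraries had 0.364 and 4.29 CPM (2 and 23 counts) and Veh libraries 32.1, 18.1 and 21.3 CPM. The DPI libraries had 1.59, 3.05, 19.1 and 2.55 CPM, so that replicate 3 lay within the Veh range and the other three below it and not above the higher ND library. The Veh mean, 23.8 ± 7.36 CPM (SD, n = 3), was 10.3-fold that of ND, 2.33 ± 2.77 CPM (SD, n = 2), and the DPI mean, 6.57 ± 8.37 CPM (SD, n = 4), was 2.82-fold that of ND. Without ND replicate 1 or 2 these ratios were 5.56 and 43.7 for Veh and 1.53 and 12 for DPI, and without DPI replicate 3 the DPI mean was 1.03-fold that of ND. Against vehicle, the log2 fold change was -1.87 ± 0.88 (SE), with an unadjusted p of 0.052 and an adjusted p of 0.999 in edgeR's quasi-likelihood test. Without DPI replicate 3 it was -3.34 ± 0.82 (SE), with an unadjusted p of 0.00158 in the same edgeR test. Among the 10 genes, Plxna1 was the one whose DPI levels overlapped ND most.

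Nrp1, a co-receptor that plexins use, had 511 and 302 counts in ND against 53, 165 and 73 in Veh (log2 fold change -1.90 ± 0.51, SE, adjusted p = 0.175 by edgeR's quasi-likelihood test). Its relative Nrp2 had 18 and 52 counts in ND and 69, 67 and 122 in Veh (1.56 ± 0.84, SE, adjusted p = 0.45). Of the 13 tested semaphorin and plexin partners, none was higher and 1 was lower (7.69%) in Veh at the study threshold, against 7.03% and 4.63% of all genes. Plxnc1, another plexin, had an estimate of -1.49 ± 0.63 (SE), opposite in sign to that of Plxna1.

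Scarf1 encodes a scavenger receptor that binds modified lipoproteins and dying cells. It had no count in ND, 4.66, 3.08 and 16.8 CPM in Veh and 3.43, 1.02, 2.22 and 0.611 CPM in DPI. Replicate 3 of Veh carried most of its level, and with 3 counts DPI replicate 2 was at the limit of detection. The Veh mean was at least 14.8-fold above the ND floor, or at least 7-fold without Veh replicate 3, and the DPI mean at least 3.29-fold. The DPI mean was 22.2% of the Veh mean (log2 fold change -2.13 ± 1.04, SE, unadjusted p = 0.0614 and adjusted p = 0.999 by edgeR's quasi-likelihood test). Without Veh replicate 3 that log2 fold change was -1.07 ± 1.35 (SE), with an unadjusted p of 0.444 in the same edgeR test.

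Among other scavenger receptors, the estimates had both signs. Cd36, which takes up fatty acids and oxidised lipoprotein, had 148 and 153 counts in ND and 498, 485 and 329 in Veh (log2 fold change 1.75 ± 0.47, SE, adjusted p = 0.175 by edgeR's quasi-likelihood test). Each Veh library lay above both ND libraries, as for 15% of all genes tested. Stab2, a receptor of sinusoidal endothelium, had 211 and 276 counts in ND, 0, 1 and 8 in Veh and 617, 69, 0 and 17 in DPI (-6.01 ± 1.67 for Veh against ND, SE, adjusted p = 0.193). Stab1, its relative, had 137 and 386 counts in ND and 104, 56 and 54 in Veh (-1.64 ± 0.73, SE, adjusted p = 0.371). Of 14 tested genes of the scavenger list, 2 were higher (14.3%) and 3 lower (21.4%) in Veh at the study threshold, against 7.03% and 4.63% of all genes.

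Pdlim4 encodes a PDZ and LIM domain protein that binds alpha-actinin on actin stress fibres. It had no count in ND, 20, 15 and 7.42 CPM in Veh, and 7.59, 8.14, 5.93 and 15.5 CPM in DPI. Of the 4 DPI libraries, 3 lay within the Veh range. The level was at least 25.6-fold higher in Veh and at least 16.8-fold higher in DPI than the ND floor, and DPI did not differ from vehicle beyond the spread (log2 fold change -0.60 ± 0.61, SE, adjusted p = 0.999 in edgeR's quasi-likelihood test, with an estimate ± 2 SE of -1.83 to 0.62). Pdlim1, its relative, had 406 and 548 counts in ND against 135, 191 and 214 in Veh (-1.17 ± 0.36, SE, adjusted p = 0.243). Csrp1, another LIM protein of the actin cytoskeleton, had 0 and 1 counts in ND and 11, 14 and 92 in Veh (adjusted p = 0.175). Limd1, a LIM protein of cell contacts, had 678 and 252 counts in ND and 195, 199 and 112 in Veh (-1.25 ± 0.41, SE, adjusted p = 0.267). Of 11 tested genes of the actin list, 2 were higher (18.2%) and 2 lower (18.2%) in Veh at the study threshold, against 7.03% and 4.63% of all genes.

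Emp1 encodes epithelial membrane protein 1, a membrane protein related to Pmp22. ND libraries had 0.546 and 2.98 CPM and Veh libraries 38.6, 16.7 and 18.1 CPM. The DPI libraries had 0, 5.09, 51 and 29 CPM, the widest range of the 10 genes on this scale. DPI replicate 1, the deepest library with 15585775 counts, had no read of Emp1, while replicate 3 had 275 counts, a level at least 278-fold higher than the floor of replicate 1. Its Veh mean was 13.9-fold that of ND (8.19 and 44.8 without ND replicate 1 or 2) and its DPI mean 12.1-fold (7.13 and 39 without them, and 6.45 without DPI replicate 3). In the tests, the log2 fold change of DPI against vehicle was -0.20 ± 1.15 (SE, adjusted p = 0.999 in edgeR's quasi-likelihood test), and -1.09 ± 1.26 (SE) without DPI replicate 3. Emp3, of the same family, had 1014 and 1103 counts in ND and 1522, 1456 and 981 in Veh, and was well detected in ND, where Emp1 was not.

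Tmem115 encodes a Golgi membrane protein related to the rhomboid family. The ND libraries had 0 and 2 counts, the Veh libraries 13.1, 23 and 10.6 CPM and the DPI libraries 14.2, 19, 14.8 and 20.5 CPM. All 4 DPI libraries lay within the Veh range, and they were the most even of the 10 genes in DPI, with a coefficient of variation of 18%. Pooled over libraries, the level was 88.4-fold that of ND in Veh (95% exact interval 24.2 to 734) and 89.6-fold in DPI (24.7 to 741). These intervals cover counting error only and are no test, since the ND and Veh counts were used to choose the gene. The 2 ND counts are under the limit of detection, and against the floor of 3 counts per ND library used for the other genes the ratios were 28.2 and 31, so the larger ratios do not place Tmem115 above them. The log2 fold change of DPI against vehicle was 0.13 ± 0.55 (SE, adjusted p = 0.999 in edgeR's quasi-likelihood test), the only positive one of the 10.

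Cyb561d2 lies 334 bp from Tmem115 and had the opposite order of libraries, with 212 and 88 counts in ND and 35, 44 and 56 in Veh (log2 fold change -1.48 ± 0.68, SE, adjusted p = 0.381 by edgeR's quasi-likelihood test). Among genes that act at the Golgi with Tmem115, Cog4, a subunit of the tethering complex COG, had 4 and 6 counts in ND and 31, 45 and 75 in Veh (3.57 ± 0.85, SE, adjusted p = 0.137). Cog1, a second subunit of that complex, had 310 and 165 counts in ND and 101, 33 and 67 in Veh (-1.54 ± 0.66, SE, adjusted p = 0.354). Rhbdd1, a rhomboid protease, had 8 and 3 counts in ND and 89, 25 and 38 in Veh (3.45 ± 0.99, SE, adjusted p = 0.213).

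Scmh1 encodes a Polycomb protein of the PRC1 complex, which keeps genes repressed through histone marks. It had no count in ND, 18.2, 12.1 and 17.6 CPM in Veh, and 9.12, 6.11, 7.6 and 2.44 CPM in DPI. As for Plcg1, every DPI library was above both ND libraries and below every Veh library. Of the 10 genes, these 2 had all DPI libraries below all Veh libraries, as had 2.48% of all genes tested. The Veh libraries helped to choose the 10, so that separation is not independent of the choice. The level was at least 28.9-fold higher in Veh and at least 11.4-fold higher in DPI than the ND floor. The DPI mean, 6.32 ± 2.86 CPM (SD, n = 4), was 39.6% of the Veh mean, 16 ± 3.33 CPM (SD, n = 3), and the log2 fold change was -1.33 ± 0.63 (SE, unadjusted p = 0.0554 and adjusted p = 0.999 in edgeR's quasi-likelihood test). Scml4, a relative of Scmh1, had 11 and 5 counts in ND, 30, 53 and 97 in Veh and 13, 15, 34 and 34 in DPI (3.17 ± 1.11 for Veh against ND, SE, adjusted p = 0.287). Rnf2, the ubiquitin ligase of PRC1, had 29 and 91 counts in ND and 144, 166 and 94 in Veh (1.35 ± 0.59, SE, adjusted p = 0.362 in the same edgeR test). It was the only one of 15 tested PRC1 genes past the study threshold. That share of genes higher in Veh, 6.67%, was near the 7.03% of all genes.

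Rnf125 encodes a ubiquitin ligase that marks RIG-I, the cytosolic sensor of viral RNA, for degradation. ND libraries had 0.546 and 2.8 CPM, Veh libraries 20.6, 35.9 and 27.2 CPM, and DPI libraries 11.9, 9.16, 23.2 and 43.4 CPM. The Veh mean was 16.7-fold that of ND (9.98 and 51.1 without ND replicate 1 or 2) and the DPI mean 13.1-fold (7.83 and 40.1). The DPI libraries lay on both sides of the Veh range (2 below, 1 above). The log2 fold change of DPI against vehicle was -0.34 ± 0.59 (SE, adjusted p = 0.999 in edgeR's quasi-likelihood test). Per kilobase of merged exons, Rnf125 had the highest Veh level of the 10 genes, 16.6 ± 4.56 CPM per kb (SD, n = 3), and Nek6 the lowest, 1.61 ± 1.14. Rnf114, a ligase of the same family, had 402 and 194 counts in ND and 377, 612 and 417 in Veh (0.86 ± 0.36, SE, adjusted p = 0.352). At the study threshold, 7.03% of all genes were higher and 4.63% lower in Veh. Of 12 tested genes of the RIG-I pathway, 2 were higher (16.7%) and none was lower at that threshold. They were Trim25, the ligase that activates RIG-I, with 301 and 597 counts in ND and 515, 1120 and 885 in Veh (1.11 ± 0.48, SE, adjusted p = 0.362), and Tbk1, the kinase downstream of it (1.30 ± 0.56, SE, adjusted p = 0.36).

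Pde12 encodes a phosphodiesterase that breaks down 2-5A, the messenger made by OAS enzymes to activate the antiviral nuclease RNase L, and that trims poly(A) tails in mitochondria. ND libraries had 1.09 and 3.54 CPM, Veh libraries 18.8, 27.9 and 25.7 CPM and DPI libraries 14.8, 15.9, 30.6 and 28.9 CPM. DPI replicates 1 and 2 lay below the Veh range and replicates 3 and 4 above it. The Veh mean was 10.4-fold that of ND (6.82 and 22.1 without ND replicate 1 or 2) and the DPI mean 9.74-fold (6.37 and 20.7). DPI did not differ from vehicle beyond the spread (log2 fold change -0.10 ± 0.48, SE, adjusted p = 0.999 in edgeR's quasi-likelihood test, estimate ± 2 SE of -1.06 to 0.86). Oas1g, which belongs to the OAS family, had 0 counts in both ND libraries, 29, 74 and 53 in Veh and 299, 41, 5 and 47 in DPI. Oas2 had 162 and 103 counts in ND and 394, 193 and 399 in Veh (1.60 ± 0.51, SE, adjusted p = 0.258). These were the 2 of 12 tested genes of the 2-5A list (16.7%) that were higher in Veh at the study threshold, and none was lower, against 7.03% and 4.63% of all genes. Arf4 overlaps Pde12 on the other strand over 5127 bp and had 317 and 595 counts in ND, where Pde12 had 6 and 19.

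The families and pathways around the 10 genes were taken as whole lists of known relatives and partners. Of 158 tested genes in them, 16 were higher (10.1%) and 15 lower (9.49%) in Veh than in ND at the study threshold, where 7.03% of all genes were higher and 4.63% lower. Of the 46 tested family members, 3 were higher (6.52%) and 7 lower (15.2%), and of the 119 tested pathway genes, 13 were higher (10.9%) and 11 lower (9.24%). None passed the adjustment in edgeR's quasi-likelihood test, where 0.0614% of all genes did and 34 of the 158 had an unadjusted p under 0.05, while DESeq2 and edgeR's likelihood ratio test each called 11. The median log2 fold change of the 158 was 0.04, next to 0.03 over all genes. With DPI, 7 of them were higher (4.43%) and 5 lower (3.16%) than with vehicle at that threshold, where 1.5% and 1.34% of all genes were. Scaled by library totals alone, which moved the median of all genes to -0.26 for Veh against ND, 539 genes of the table were higher and 933 lower in Veh at the study threshold, where TMM scaling gave 801 and 528. For DPI against vehicle the same change gave 196 higher and 101 lower, where TMM gave 171 and 153. Of the 158 list genes, 11 were higher and 26 lower with library totals alone, where TMM gave 16 and 15.

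Genes near zero in ND and present in Veh were not limited to the 10. Of 9515 genes above 3 counts in every Veh library, 252 (2.65%) were at or under 3 counts in both ND libraries, and 6 of the 10 (Plcg1, Nek6, Scarf1, Pdlim4, Tmem115 and Scmh1) are among them. The reverse pattern held for 96 of 8856 genes (1.08%). The 252 genes had a median Veh level of 3.52 CPM, and 40 of them reached the Veh level of Scarf1 or more. Plcg1 and Nek6 were among the 8 highest by Veh mean, a group that also held the chemokine Ccl22 and Fdps, an enzyme of cholesterol synthesis. In the DPI libraries, 121 of the 252 (48%) were above 3 counts in all 4, as were 5 of the 6 (Scarf1 had 3 counts in DPI replicate 2).

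Low counts were also more frequent in the ND libraries among all genes of similar abundance. Among 4882 genes with a mean of 3.54 to 19.4 CPM over the 9 libraries, the range of the 10, 15.4% were at or under 3 counts in ND replicate 1 and 8.07% in replicate 2. That share was 4.51%, 2.15% and 3.73% in the Veh libraries and 1.25% to 4.3% in the DPI libraries. The ND libraries had 4666522 and 4801564 counts, within the range of the Veh libraries (4565492 to 5518176). In ND replicate 1, 319 genes were at or under 3 counts although the other ND library had at least 10 CPM, and 186 genes were so in replicate 2, against 1 to 5 genes in each Veh or DPI library under the same condition for the rest of its group. Only 1 other library stands behind that comparison in ND and 2 or 3 in the other groups, and the part of this ND loss of genes in the zeros of the 10 was not tested.

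**Figure D3:**
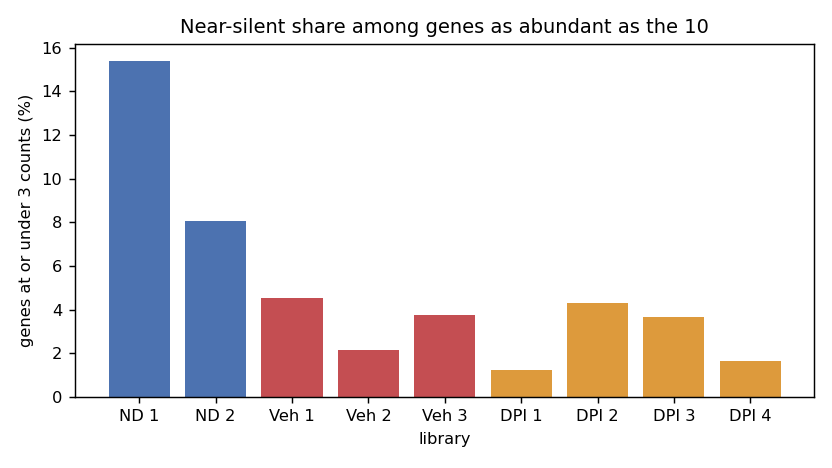
Share of genes at or under 3 counts in each library (y axis, %, from 0), among 4882 genes whose mean CPM lies within the range of the 10 genes. The 2 ND libraries have the highest shares, 15.4% and 8.07%, and the other 7 libraries 1.25% to 4.51%.

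The sums of marker lists also differed between libraries, and none followed the 10 genes in every library. The 9 neutrophil markers summed to 1190 and 3080 CPM in ND, 2520, 3280 and 3860 in Veh, and 832, 830, 3680 and 5460 in DPI. DPI replicates 1 and 2, with the low sums of the 10 genes, thus had the lowest neutrophil sums of the 9 libraries, while ND replicate 2 lay within the Veh range. The 7 B cell markers summed to 14.9 and 69.2 CPM in ND, 121, 210 and 169 in Veh, and 40.1, 18.7, 153 and 461 in DPI, again with DPI replicates 1 and 2 low, and with replicate 4 above every Veh library. The 10 endothelial markers went the opposite way, at 155 and 251 CPM in ND, 30.1, 25.4 and 18.1 in Veh, and 174, 97, 16.3 and 39.2 in DPI. The 12 Kupffer cell markers were at 1160 and 964 CPM in ND, 852, 899 and 642 in Veh, and 1210, 1370, 680 and 664 in DPI. Csf1r alone made up 750 and 385 CPM of these sums in ND, 574, 569 and 490 in Veh, and 474, 548, 451 and 459 in DPI. Of the 8 tested Kupffer cell markers, 3 were lower (37.5%) and none higher in Veh than in ND at the study threshold, against 4.63% and 7.03% of all genes. The median log2 fold change of the 8 was -1.06. Hepatocyte markers summed to 300 to 447 CPM in ND, 162 to 207 in Veh and 205 to 340 in DPI. The 11 dendritic cell markers were at 221 and 201 CPM in ND, 360, 410 and 331 in Veh, and 276, 263, 354 and 535 in DPI. DPI replicates 1 and 2 thus lay between ND and Veh in that sum, as in the sum of the 10 genes, while replicate 4 was above every Veh library. The 14 T and NK cell markers were at 231 and 706 CPM in ND, 750, 1230 and 1090 in Veh, and 547, 1500, 901 and 796 in DPI, where replicate 2 had the highest T and NK sum and the lowest sum of the 10 genes. The 8 eosinophil markers were at 103 and 73.4 CPM in ND, 73.4, 70.3 and 58.9 in Veh, and 163, 178, 35 and 113 in DPI. Ear2 alone made up 96.2 and 67.9 CPM in ND and 66.1, 61.4 and 52 in Veh. Epx, Siglec5, Ccr3, Ear1 and Ear6 had no count in either ND library. Prg2 had 0 and 1 counts in ND, 0, 10 and 0 in Veh and 1296, 265, 2 and 468 in DPI. Of 6 tested eosinophil markers, 4 (66.7%) were higher with DPI than with vehicle at the study threshold, where 1.5% of all genes were. Of the 7 B cell markers, 5 were above 3 counts in at least 1 ND library. Cd79a had 44 and 233 counts in ND and Cd79b 38 and 20, while Blk had none in either ND library. The F4/80+ CD11b+ Gr1low gate is meant to leave out neutrophils, lymphocytes, endothelial cells and hepatocytes. The part of these cell types in the levels of the 10 genes was not tested.

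**Figure D4:**
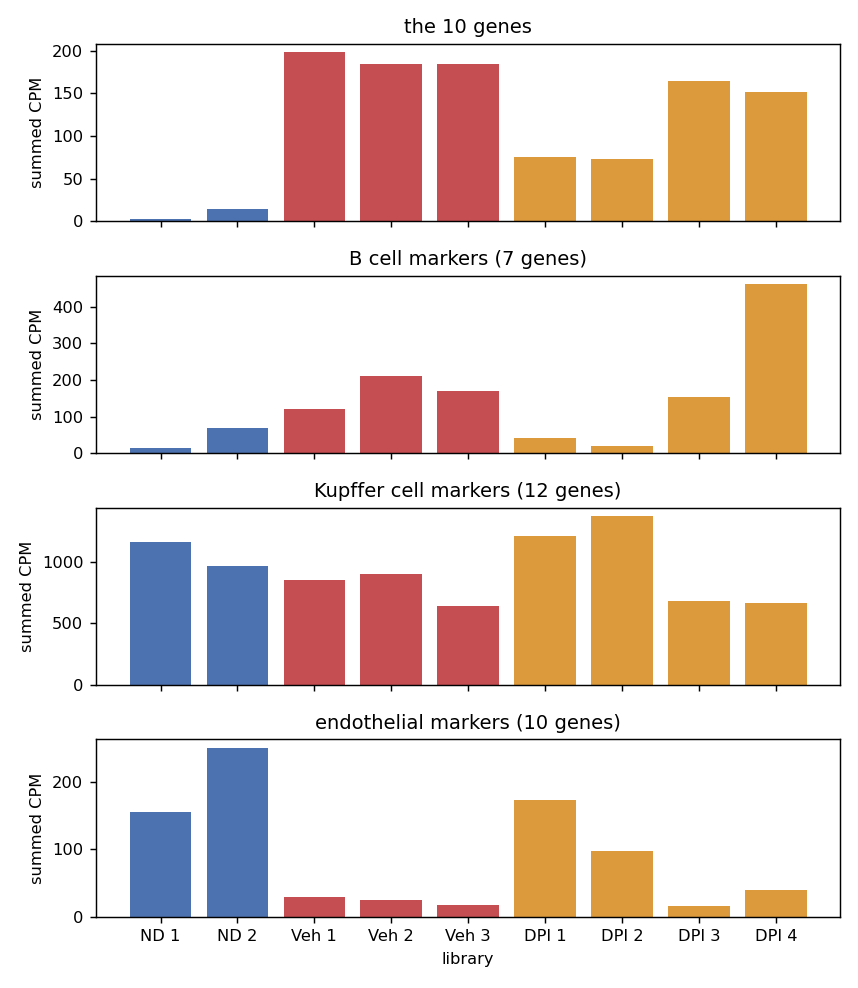
Summed CPM per library (bars from 0) of the 10 genes and of B cell, Kupffer cell and endothelial markers, in ND, Veh and DPI libraries. DPI replicates 1 and 2 have the low sums of the 10 genes (75.1 and 72.6 CPM), the low B cell sums and the high endothelial sums of their group.

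Within DPI, the genes did not follow 1 order of libraries. Rnf125, Emp1 and Pde12 were low in replicates 1 and 2 and higher in replicates 3 and 4, and so contributed most to the difference between the low and the high pair of sums. Scmh1, Nek6 and Scarf1 had their highest DPI level in replicate 1, Plcg1, Rnf125, Pdlim4 and Tmem115 in replicate 4, and Emp1, Plxna1 and Pde12 in replicate 3. Over the 9 libraries, the 5 genes outside the 10 whose log2 CPM lay closest to the mean standardised level of the 10 were 8430419L09Rik (Pearson r = 0.975), Sdcbp (0.968), Fdps (0.961), Adamts14 (0.957) and Mospd1 (0.956). These are descriptions over 9 libraries that share the ND, Veh and DPI grouping by which the 10 were chosen. Fdps had 0 counts in both ND libraries and 121, 125 and 117 in Veh, while Sdcbp, an adaptor protein with PDZ domains, was abundant in all groups, with a mean of 319 CPM in ND, 598 in Veh and 467 in DPI.

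The 10 genes lie on 7 chromosomes in GENCODE M21 (GRCm38), and none shares a neighbourhood with another as its nearest gene. All are protein-coding, and they span from 4729 bp (Tmem115, chr9:107533945-107538673) to 124906 bp (Scmh1, chr4:120405281-120530186). Of their 20 nearest genes in the table, 1 on each side and leaving out overlapping genes, none was at or under 3 counts in both ND libraries and above it in every Veh library. Of these neighbours, 7 were above 3 counts in both ND libraries and 6 were at or under 3 counts in all 9 libraries. Rilp, 372 bp from Scarf1 on the same strand, had 0 and 21 counts in ND and 0, 25 and 0 in Veh, and Slfnl1, 2045 bp from Scmh1, had none in any library.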

How the data were processed

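RNA-seq of sorted liver macrophages was analysed for 9 libraries (ND 2, Veh 3, DPI 4), grouped by the sample labels, each named there as a separate mouse. The authors aligned reads to mm10 and deposited raw counts, 1 whole number per gene and library, not normalized. The study's methods name bowtie2 and RSEM, and the submitters' processing notes name TopHat2 and edgeR. RSEM estimates counts that need not be whole, so rounding is possible. Every column belonged to a library of the series (0 unused).

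The test was that of edgeR 4.0.16, run in R 4.3.3 (filterByExpr, TMM factors, glmQLFit over the 3 groups, Benjamini-Hochberg adjustment over 11393 genes, threshold 0.05), after the procedure was tested on simulated counts. DESeq2 1.42.0, Python 3.11.15, pandas 2.3.3, numpy 2.4.6, scipy 1.17.1 and matplotlib 3.10.9 were also used. Where both ND libraries had no count, folds were computed against 3 counts per library, and such limits hold for counting error alone because PCR copies are not separate molecules. The 10 genes and all gene lists were chosen with earlier results of these data known. Genes were named from the 2 of lowest p in Veh against ND per family or pathway list, leaving out several with p over 0.05, beside the 5 most alike and the 3 nearest neighbours. Ccl22, the overlapping genes, markers at 0 and the genes under other observations were named after their values were seen. The alternatives were other scalings, filters and tests, fits of 2 groups, leaving out Rn45s or each library, and the replicate number as a block.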

Additional observations from a re-analysis of the deposited data

Results flagged for a closer look

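Among the 4 DPI libraries, Plxna1 was at 1.59, 3.05 and 2.55 CPM in replicates 1, 2 and 4 and at 19.1 CPM in replicate 3. The gap between the highest library and its nearest neighbour took up 0.916 of the whole range of the group, more than Dixon's test allows for 4 samples. Chance passes that limit in about 1 in 20 groups, and the DPI libraries of 10 genes were examined. Replicate 3 had 103 counts of Plxna1 in a library of 5367083 counts, and its level was within the range of the Veh libraries. The gene's DPI mean rests on that library, and without it the log2 fold change of DPI against vehicle went from -1.87 ± 0.88 to -3.34 ± 0.82 (SE).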

How the results depend on the processing

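Of 170 estimates of DPI against vehicle for the 10 genes under the alternatives, 162 kept their direction and their side of the adjusted threshold and 8 reversed, in 3 genes whose estimates were near 0. They were Pde12 (0.00 with library size alone, -0.28 to 0.06 leaving out a library), Tmem115 (-0.09 to 0.53 leaving out a library) and Emp1 (-1.09 to 0.28 leaving out a library). The 2 genes lower at the study threshold became 1 with library size alone, 5 with DESeq2, the likelihood ratio test or a fit of 2 groups only, and 1 to 5 leaving out a library. No value was computable for the 10 genes with at least 10 counts required in every library. Over all genes, the 7 adjusted calls of Veh against ND became 1 with library size alone, 52 without a filter, 1 with at least 10 counts, 319 with DESeq2, 280 with the likelihood ratio test, 0 with 2 groups only, and 1 to 568 leaving out a library (568 without ND replicate 2, 3 without ND replicate 1). The 1329 genes at the study threshold became 726 with at least 10 counts and 1027 to 2634 leaving out a library. For DPI against vehicle, the 0 adjusted calls became 2 with DESeq2 and 1 with the likelihood ratio test, and the 324 at the study threshold became 602 without a filter, 202 with at least 10 counts and 187 to 543 leaving out a library. Of the 158 family and pathway genes, adjusted calls in Veh against ND went from 0 to 1 without a filter, to 11 with DESeq2 or the likelihood ratio test, and to 0 to 11 leaving out a library. Those higher at the study threshold went from 16 to 6 with at least 10 counts and 13 to 24 leaving out a library, and those lower from 15 to 26 with library size alone and 10 to 15. Pdlim2 in Veh against ND reversed to 9.19 without ND replicate 2 (range -1.52 to 9.19) and Plxnd1 to 0.31 without ND replicate 1 (-1.22 to 0.31). With 1 library fewer to meet the condition, the 252 genes near zero in ND became 350 to 1008, and the 96 of the reverse pattern 147 to 434. The 2 numbers were 272 and 83 with a floor of 0 counts and 188 and 138 with a floor of 10 counts. With counts thinned to the smallest library total they were 224 and 112. A lone ND library was assumed to vary like the other groups. The causes were not tested.

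The replicate number was not a pairing, since correlations between same-numbered libraries ran from -0.022 to 0.084. With the replicate block, Veh against ND gave 0 adjusted calls and 897 genes at the study threshold, DPI against vehicle 401, the family and pathway genes 8 lower, Pdlim2 0.55, and Emp1 in DPI against vehicle -2.52 ± 1.91 (SE).

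With 3 counts as the limit, a gene at 0 in an ND library can have had up to 0.546 or 0.559 CPM there, and 2 ND libraries give little hold on the spread of that group.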

Other observations

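Beyond Plcg1 and Nek6, the genes near zero in both ND libraries with the highest Veh means included Ccl22, a chemokine that attracts T cells, with 3 and 1 counts in ND, 139, 43 and 184 in Veh and 102, 28, 172 and 127 in DPI. Gbp5, an interferon-induced GTPase, had 2 and 0 counts in ND, 130, 17 and 100 in Veh and 163, 34, 48 and 60 in DPI. Faim3, a receptor for IgM that B cells carry, had 0 and 1 counts in ND, 108, 139 and 98 in Veh and 20, 9, 165 and 387 in DPI. All 3 were above 3 counts in every DPI library, and Faim3 was lowest there in replicates 1 and 2.

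Among the 8 genes with the highest ND means of those above 3 counts in both ND libraries and at or under 3 in every Veh library, several are known from endothelium or hepatocytes. Aqp1, a water channel of endothelium, had 102 and 171 counts in ND, 0, 1 and 0 in Veh and 236, 22, 0 and 12 in DPI. Ramp2, a co-receptor for adrenomedullin in endothelium, had 124 and 108 counts in ND, none in Veh and 92, 1, 0 and 11 in DPI. Ambp, a secreted protein made by hepatocytes, had 90 and 132 counts in ND, 0, 0 and 1 in Veh and 34, 22, 0 and 28 in DPI. Saa2, an acute-phase protein of the liver, had 76 and 81 counts in ND, none in Veh and 1, 0, 0 and 0 in DPI. Aqp1 and Ramp2 had their highest DPI count in replicate 1, the deepest library, and Saa2 was near zero in all HFD libraries. These genes were picked by their counts in these libraries, and no test was made of them.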
